A study of Mus musculus with 6 samples.

Results

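Neuropeptides are made as long precursors that are cut and modified inside dense core vesicles. The 10 genes described here encode the main enzymes of that pathway and the granin family of vesicle proteins, namely the convertases *Pcsk1* and *Pcsk2*, the chaperone *Scg5*, the carboxypeptidase *Cpe*, the amidating enzyme *Pam*, and the granins *Chga*, *Chgb*, *Scg2*, *Scg3* and *Vgf*. They were chosen by symbol from the 24015 genes of the count files, and all 10 were present and passed the filter on low counts. RNA was sequenced from the microdissected arcuate nucleus (ARC) of adult female mice on a mixed background, which the labels give as CD-1, 129P2 and C57BL/6 and the study's methods as CD-1 and 129P2. The 3 controls were *Esr1fl/fl*, and the 3 mutants, *Esr1fl/fl;Nkx2-1-Cre* (*Esr1Nkx2-1Cre*), carried the same floxed alleles with Cre driven by *Nkx2-1*. This Cre acts during development and throughout the medial basal hypothalamus, so loss of the estrogen receptor ERα is not limited to the ARC or to adult life. Each group holds 3 numbered replicates. The labels do not say what a replicate is, and the study gives its n as females.

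Within the vesicle, PC1/3 (from *Pcsk1*) and PC2 (from *Pcsk2*) cut precursors at pairs of basic residues. Carboxypeptidase E then trims the exposed basic residues, and PAM amidates the C terminus of many peptides. The protein 7B2, encoded by *Scg5*, is needed for active PC2. Granins are acidic proteins that aggregate in the secretory pathway, help to form and load the vesicles, and are themselves cut into peptides. In the ARC this machinery acts on the products of *Pomc*, *Npy*, *Agrp* and the kisspeptin, neurokinin and dynorphin genes.

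Levels are given as CPM, the reads on a gene scaled to a common library size with TMM normalization, from libraries of 11792440 to 17877137 counts on genes. *Esr1* was at 64.5, 57.5 and 48.5 CPM in controls 1, 2 and 3 and at 11.8, 9.55 and 7.06 CPM in mutants 1, 2 and 3, as the labels state. All 8 markers of ARC neurons listed for this work were detected in every sample, and their summed CPM ran from 750 to 813 for controls and from 884 to 1350 for mutants. These sums did not overlap, and in 3 of the 8 genes every mutant lay above every control, beside 7.88% of all genes tested. The list includes *Kiss1*, which the study reports as elevated in these mutants, so the sum is not a measure of tissue alone. In contrast, 7 pituitary markers, among them *Cga* and *Tshb*, summed to 6.05 CPM in control 2. They summed to between 465 and 762 CPM in the other 5 samples. Control 2 was also lowest in the summed markers of tanycytes, at 360 CPM against 517 to 710 CPM elsewhere. The same held for endothelial markers, at 75.4 CPM against 102 to 116 CPM. It was highest in astrocyte markers, at 6446 CPM against 3743 to 5935 CPM. Control 2 thus stood apart, and values without it are given for some of the results that rest on it. In bulk tissue, fewer cells of a type and less RNA per cell cannot be told apart.

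In the quasi-likelihood test of edgeR, 0 of the 10 genes passed an adjusted p-value of 0.05 when *Esr1Nkx2-1Cre* was compared with control ARC, beside 0.118% of the 15236 genes tested. Before adjustment, 3 of the 10 had a p-value under 0.05, beside 8.85% of all genes tested (4.84% higher and 4.01% lower in the mutants). These were *Cpe*, *Pcsk1* and *Scg5*, and in the same 3 genes every mutant lay above every control. Groups failed to overlap in 15.8% of all genes tested and were higher in the mutants in 7.88%. DESeq2, the tool of the study, called *Cpe* alone, beside 1.27% of the genes it tested. The log2 fold change was positive for 9 of the 10 and ran from -0.096 (*Scg2*) to 0.64 (*Vgf*), with a median of 0.29 against 0.0036 over all genes tested. Without control 2 this median was 0.045, and the log2 fold change of *Chga* was also negative.

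**Figure D1:**
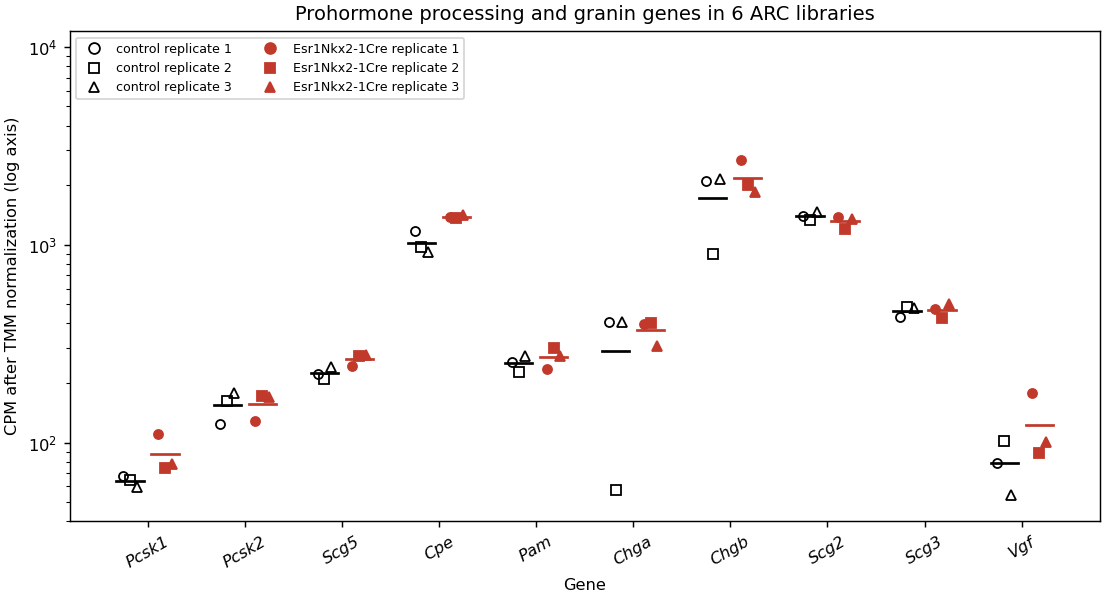
Level of each gene in each sample, as CPM after TMM normalization on a log axis, with open black symbols for controls, filled red symbols for mutants, a symbol shape per replicate number and a bar at the group mean. The 3 mutants lie above the 3 controls for *Cpe*, *Pcsk1* and *Scg5*, and control 2 lies far below the other samples for *Chga* (57.5 CPM) and *Chgb* (900 CPM).

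To show the regulatory sequence of genes that differ in their behaviour here, promoter sequences were read from RefSeq (build GRCm38.p6), which held an entry for 8 of the 10 genes and none for *Cpe* or *Vgf*. The cAMP response element TGACGTCA, a palindrome bound by CREB, was searched on both strands from 250 bases before to 50 after the start. It was present for *Pcsk1*, *Chgb* and *Scg2*, that is for 3 of 8, beside 1.79% of the 32851 promoters in the table. The core TGACG, which lies inside it, was present on either strand for 7 of 8 (the exception being *Pam*), beside 20.8% of all promoters. The stretch of 100 bases ending 21 bases before the start is shown for the 3 genes with the full element and for *Chga*, which had the core alone, with the full element or, in *Chga*, the core in capitals. The stretches are chr13:75089737-75089836 on the plus strand (*Pcsk1*), chr2:132781522-132781621 on the plus strand (*Chgb*), chr1:79440047-79440146 on the minus strand (*Scg2*) and chr12:102554821-102554920 on the plus strand (*Chga*).
Pcsk1: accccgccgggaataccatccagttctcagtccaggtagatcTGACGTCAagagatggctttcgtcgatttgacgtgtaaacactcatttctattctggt
Chgb: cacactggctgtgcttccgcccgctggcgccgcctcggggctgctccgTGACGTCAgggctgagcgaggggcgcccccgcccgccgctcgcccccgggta
Scg2: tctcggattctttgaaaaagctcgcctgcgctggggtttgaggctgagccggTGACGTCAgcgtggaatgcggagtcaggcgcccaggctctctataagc
Chga: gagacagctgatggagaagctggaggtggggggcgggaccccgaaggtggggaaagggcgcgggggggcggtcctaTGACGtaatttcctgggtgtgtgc
In each of *Pcsk1*, *Chgb* and *Scg2* the element began between 78 and 68 bases before the start. *Pcsk1* holds a further TGACG downstream of it, left in lower case. The 3 genes that share the element did not share a pattern across the 6 samples. *Pcsk1* was highest in the mutants, *Chgb* was lowest in control 2 and *Scg2* was nearly level, as described next. A match is a description of letters and not of a bound site, and the part of the element in these levels was not tested.

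Of the convertases, *Pcsk1* was at 67.7, 64.9 and 59.4 CPM in controls 1, 2 and 3 and at 110.8, 74.6 and 77.7 CPM in mutants 1, 2 and 3. All mutants exceeded all controls, but mutant 1 stood well above the other two. The log2 fold change was 0.45 (standard error, SE, 0.15; edgeR adjusted *p* = 0.391, DESeq2 0.194), and it was 0.25 without mutant 1. *Pcsk2* was at 124.8, 163 and 178 CPM in controls and at 128, 171 and 170.5 CPM in mutants. The groups overlapped almost entirely, with replicate 1 the lowest sample in both genotypes, and the log2 fold change was 0.013 (SE 0.15, edgeR adjusted *p* = 0.993). Exons of *Pcsk2* overlap those of antisense genes in the annotation, and whether the counting used strand is not given in the sources used here.

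The balance of both convertases was read within each library, where it does not depend on scaling. The log2 ratio of *Pcsk1* to *Pcsk2* counts was -0.88, -1.33 and -1.58 in controls and -0.21, -1.20 and -1.13 in mutants. The means were -1.26 ± 0.354 (SD, n = 3) and -0.85 ± 0.555 (SD, n = 3), and the groups overlapped (exact two-sided permutation test, p = 0.4). The difference of 0.42 was 0.099 without mutant 1, 0.26 without control 3 and 0.61 without control 1. With 3 samples against 3 this test cannot give a p-value under 0.1.

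*Scg5*, whose product 7B2 escorts the PC2 precursor, was at 223, 209.7 and 239.7 CPM in controls and at 243, 273 and 278 CPM in mutants. The lowest mutant exceeded the highest control by a narrow margin, for a log2 fold change of 0.24 (SE 0.087, edgeR adjusted *p* = 0.438). Its log2 ratio to *Pcsk2* counts was 0.54 ± 0.257 (SD, n = 3) in controls and 0.77 ± 0.139 (SD, n = 3) in mutants (exact two-sided permutation test, p = 0.3). The difference of 0.22 ranged from 0.13 without control 2 and 0.14 without mutant 1 to 0.37 without control 1.

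*Cpe*, which encodes the carboxypeptidase of the vesicle, showed the clearest separation. It was at 1171, 970 and 922 CPM in controls 1, 2 and 3 and at 1380, 1372 and 1411 CPM in mutants 1, 2 and 3. The mutants lay close together, and all were above the highest control. The log2 fold change was 0.44 (SE 0.10), or 1.36-fold. Its adjusted *p* was 0.163 in edgeR's test and 0.00691 in DESeq2. Leaving out each sample in turn gave log2 fold changes from 0.37 to 0.55 and adjusted p-values from 0.0771 to 0.538 with edgeR.

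Marker lists of other cell types also differed between the groups. Of 8 oligodendrocyte markers, 8 had mutants above controls, and their summed level was 676 to 1269 CPM in controls and 1663 to 1793 CPM in mutants. Of 6 microglia markers, 2 did so, with sums of 138 to 153 CPM and 177 to 186 CPM. Over all genes tested, 7.88% had every mutant above every control. No marker of either list was at 0 in any sample. The part of these cells in the values of *Cpe* was not tested. The sums of 12 pan-neuronal markers overlapped between genotypes (5268 to 6690 CPM in controls and 5505 to 7239 CPM in mutants). With scaling to these markers, the log2 fold change of *Cpe* was 0.33 (SE 0.16, edgeR adjusted *p* = 0.999). That scaling moved the median of all genes to -0.093.

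*Pam*, which encodes the copper-dependent amidating enzyme, was at 255, 227 and 274 CPM in controls and at 234, 301 and 275.5 CPM in mutants. The ranges overlapped, and the log2 fold change was 0.10 (SE 0.11, edgeR adjusted *p* = 0.847).

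The granins fell into those that were nearly level and those that varied within a genotype. *Scg2*, the secretogranin II precursor of secretoneurin, was at 1397, 1340 and 1471 CPM in controls and at 1387, 1197 and 1353 CPM in mutants (log2 fold change -0.096, SE 0.090, edgeR adjusted *p* = 0.818). *Scg3*, which encodes secretogranin III, a binding partner of chromogranin A, was at 432, 484 and 478 CPM in controls and at 474, 429 and 500.1 CPM in mutants (log2 fold change 0.0087, SE 0.089, edgeR adjusted *p* = 0.993). Across all 6 samples the highest level was 1.23 times the lowest for *Scg2* and 1.17 times for *Scg3*. Both genotypes overlapped for both genes.

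*Chga*, which encodes chromogranin A, was at 407, 57.5 and 407 CPM in controls 1, 2 and 3 and at 399, 400.0 and 308 CPM in mutants 1, 2 and 3. Control 2 alone was low, 5.36 times below the next lowest sample, on 988 reads against 4620 to 6366 reads elsewhere. *Chgb*, which encodes chromogranin B, was at 2105, 900 and 2160 CPM in controls and at 2667, 1996 and 1849 CPM in mutants. Here too control 2 was the lowest sample, 2.05 times below the next.

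Few genes fell as far in this library. Of the 15236 genes tested, 37 were as low as *Chga* in control 2 relative to the lowest of the other samples, and 196 were as low as *Chgb*. The first of them was *Cga*, the alpha subunit of the pituitary glycoprotein hormones, at 3.26 CPM in control 2 and 372 to 582 CPM elsewhere. Of the 7 pituitary markers, *Tshb* was at 1.92 CPM in control 2 and 70.6 to 140.2 CPM elsewhere, and the transcription factor *Pitx1* at 0.233 CPM and 10.6 to 16.8 CPM. *Gh* and *Prl* were at 0 in several libraries, control 2 included. The part of pituitary tissue in the levels of *Chga* and *Chgb* was not tested. Nor was that of the other cell types whose markers set control 2 apart. The ratio of *Chgb* to *Chga* counts was 15.7 in control 2 and between 4.99 and 6.68 in the other samples, so *Chgb* was reduced less than *Chga*.

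**Figure D2:**
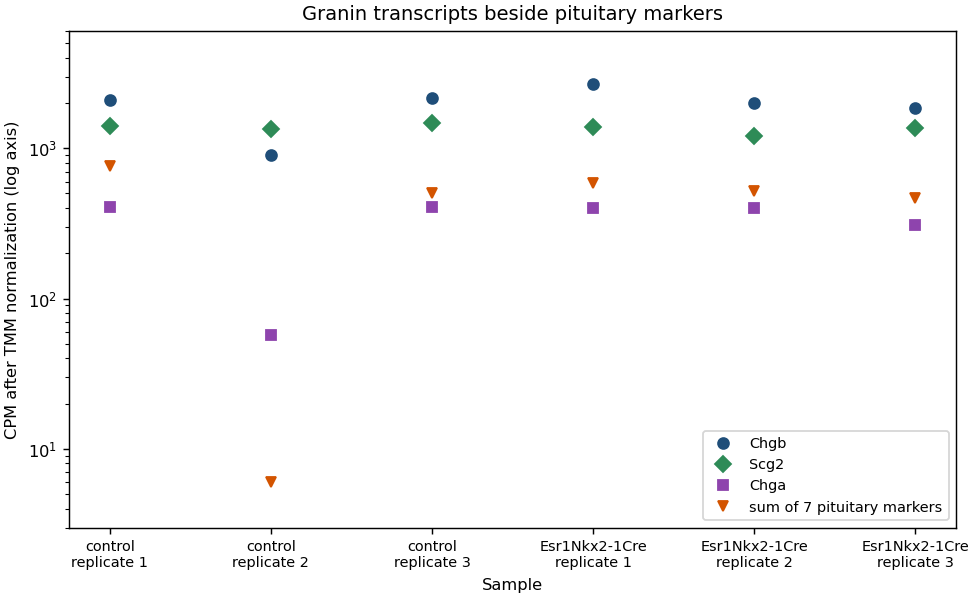
CPM after TMM normalization on a log axis, by sample, for *Chgb*, *Scg2*, *Chga* and the sum of 7 pituitary markers. In control 2 the markers sum to 6.05 CPM, *Chga* is at 57.5 CPM and *Chgb* at 900 CPM, while *Scg2* stays at 1340 CPM.

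The genotype comparison of these chromogranins rested on that library. The log2 fold change of *Chga* was 0.35 (SE 0.78, edgeR adjusted *p* = 0.943) with all samples and -0.14 (SE 0.12, edgeR adjusted *p* = 0.847) without control 2. That of *Chgb* was 0.33 (SE 0.37, edgeR adjusted *p* = 0.860) and 0.026 (SE 0.15, edgeR adjusted *p* = 0.991). Without control 2, groups did not overlap for 6 of the 10 genes, beside 24.6% of all genes tested. Besides *Cpe*, *Pcsk1* and *Scg5* these were *Chga* and *Scg2*, lower in the mutants, and *Vgf*, higher.

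*Vgf*, whose product yields several secreted peptides and whose transcription follows neuronal activity and neurotrophins, was at 79.0, 102 and 54.2 CPM in controls and at 178, 88.2 and 101 CPM in mutants. Mutant 1 was highest by a wide margin, while the remaining samples of both genotypes overlapped. The log2 fold change of 0.64 (SE 0.37, edgeR adjusted *p* = 0.696) was the largest of the 10 genes, with a standard error near that of *Chgb*, and it was 0.26 without mutant 1. *Pcsk1* was also highest in mutant 1, as was the sum of the ARC neuron markers, at 1350 CPM. The sum of 10 immediate early genes, which respond to neuronal activity, was highest in mutant 3 (500.1 CPM, against 327 in mutant 1 and 306 in mutant 2). Controls 1, 2 and 3 were at 316, 125 and 206 CPM, so the sums overlapped between genotypes. The log2 fold change was positive for 10 of these 10 genes, with a median of 0.95, or 0.63 without control 2. In 6 of them every mutant was above every control, beside 7.88% of all genes tested. Of the 10, 1 was called by edgeR, beside 0.118% of all genes tested. The part of the immediate early genes in the levels of *Vgf* and *Pcsk1* was not tested.

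**Figure D3:**
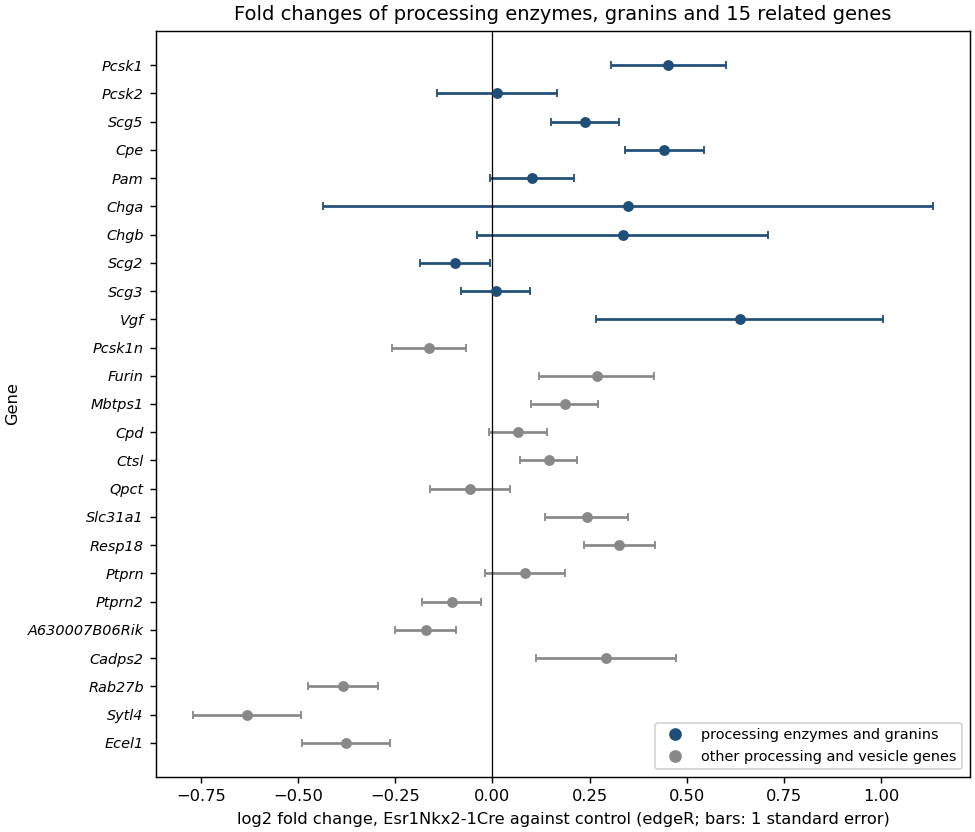
Log2 fold change of mutants against controls from edgeR, with bars of 1 standard error, for the 10 processing and granin genes (blue) and 15 other genes of the pathway (grey). The bars of *Chga*, *Chgb* and *Vgf* (standard errors 0.78, 0.37 and 0.37) are the widest.

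Spread between samples of the same genotype divided the 10 genes. The pooled SD of log2 CPM within genotype was 1.16 for *Chga*, 0.55 for *Chgb* and 0.50 for *Vgf*, at the 99.6, 95.5 and 94.2 percentile of all genes tested. Without control 2 it was 0.18 for *Chga* and 0.23 for *Chgb*, at the 56.3 and 69.1 percentile, and 0.49 for *Vgf*, at the 95.0 percentile, so of these 3 genes *Vgf* alone kept its wide spread. With all samples it was 0.093 for *Scg2*, 0.10 for *Scg5* and 0.10 for *Scg3*, between the 17.8 and 21.9 percentile. *Cpe*, *Pam*, *Pcsk1* and *Pcsk2* lay between these, from the 33.5 to the 70.9 percentile.

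The genes also differ in abundance. As CPM per kilobase of exon, averaged over the 6 samples, *Chgb* was highest at 710 ± 213 (SD, n = 6), followed by *Cpe* at 577 ± 104 and *Scg2* at 546 ± 36.5. The ranges of these leading genes overlapped. *Scg2* exceeded *Scg3* (207 ± 13.0) in every sample. *Scg3* in turn exceeded *Scg5* (156 ± 17.0) in every sample, while *Chga* (175 ± 73.7) overlapped both and, through control 2 at 30.5, reached down into the range of *Vgf* and *Pam*. *Scg5* exceeded *Vgf* (39.3 ± 16.4) in every sample. The least abundant were *Vgf*, *Pam* (32.7 ± 3.50), *Pcsk1* (23.4 ± 5.66) and *Pcsk2* (19.7 ± 2.95), each overlapping the next. *Pcsk1* exceeded *Pcsk2* in 4 of 6 samples, the exceptions being controls 2 and 3. Exon lengths were those of the annotation and need not match the isoforms used in the ARC.

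**Figure D4:**
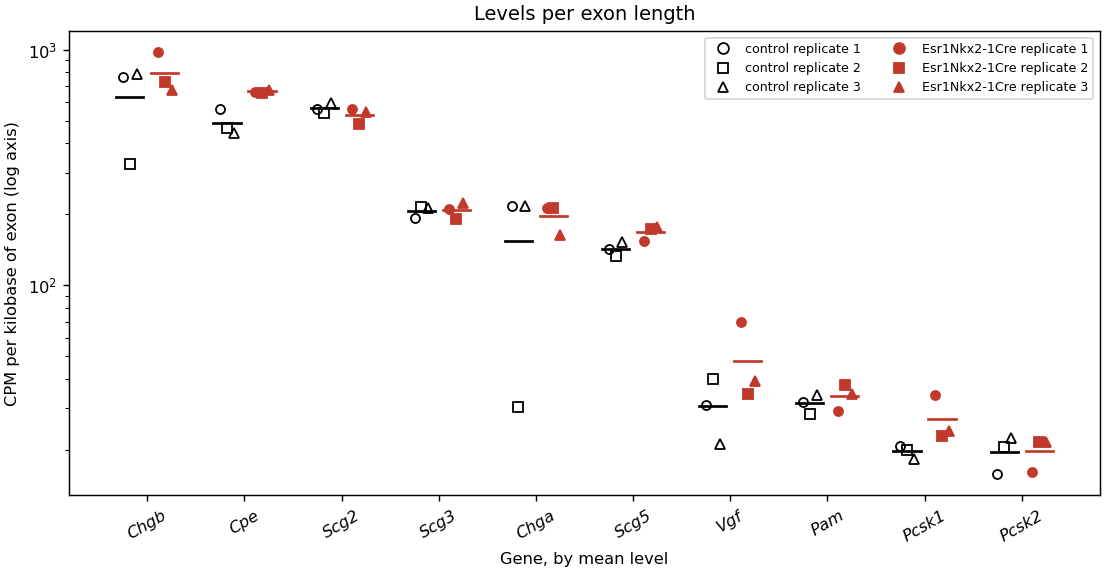
CPM per kilobase of exon on a log axis, by gene and sample, with symbols as for the CPM of each gene and bars at the group means. Levels per length run from *Chgb* (mean 710) to *Pcsk2* (mean 19.7), and all 5 granins lie above both convertases in mean level.

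Together the 10 genes took 0.634, 0.435 and 0.620% of all counts in controls 1, 2 and 3 and 0.740, 0.637 and 0.626% in mutants 1, 2 and 3. Control 2 was the lowest sample and these raw shares overlapped. Summed as TMM CPM, the 10 genes did not overlap, at 6261, 4519 and 6242 in controls and 7201, 6301 and 6322 in mutants, with the lowest mutant just above the highest control. With *Chga* and *Chgb* left out, the shares were 0.379, 0.342 and 0.365% in controls and 0.425, 0.395 and 0.412% in mutants, and the groups did not overlap. *Cpe* had the largest difference in mean CPM among the remaining 8 genes (1021 ± 132 for controls, 1387 ± 20.6 for mutants, SD, n = 3 each). This subset was chosen after its values were seen.

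The 5 genes outside the list whose profiles over the 6 samples were most like the mean standardised log2 CPM of the 10 genes were *Emp3*, *Tgif1*, *Rem2*, *Gpcpd1* and *Dram1*, with Pearson's r from 0.985 to 0.992. They were the highest of all genes tested, so the values are descriptions. Like the mean profile, each was lowest in control 2 and had every mutant above every control. The genes were chosen for likeness to that profile, so these shared features are no further result. The mean profile was at -0.72 in control 2 and next lowest at -0.31 in control 1, and it was not computed without control 2. The mean profile stood for its own genes unequally, since r was 0.85 for *Scg5*, 0.75 for *Chgb* and 0.73 for *Cpe* but 0.030 for *Pcsk2* and -0.053 for *Scg2*.

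Of 40 other genes of prohormone processing and dense core vesicles, 39 passed the filter on low counts, and 0 had an adjusted p-value under 0.05 with edgeR. Before adjustment 3 were higher with a p-value under 0.05 (*Resp18*, *Slc31a1* and *Sort1*), beside 4.84% of all genes tested. Likewise 4 were lower (*Sytl4*, *Rab27b*, *Ecel1* and *Atp7a*), beside 4.01% of all genes tested. *Sort1* and *Atp7a* are named after their values were seen. The groups did not overlap for 10 genes, 5 higher and 5 lower in mutants, which is 25.6% of the 39 beside 15.8% of all genes tested. The median log2 fold change was -0.017. DESeq2 called 2 of the 39, *Sytl4* and *Rab27b*, both lower in the mutants, beside 1.27% of the genes it tested.

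*Rab27b* encodes a small GTPase that docks secretory vesicles, and *Sytl4* encodes granuphilin, an effector of Rab27 on vesicle membranes. *Rab27b* was at 75.2, 81.5 and 79.1 CPM in controls and at 54.5, 61.4 and 64.6 CPM in mutants. Its log2 fold change was -0.38 (SE 0.091, edgeR adjusted *p* = 0.178, DESeq2 0.0486). *Sytl4* was at 81.5, 98.1 and 72.0 CPM in controls and at 46.2, 54.2 and 61.9 CPM in mutants. Its log2 fold change was -0.63 (SE 0.14, edgeR adjusted *p* = 0.155, DESeq2 0.00472). Each mutant was below each control for both genes, and the spread within a genotype was smaller for *Rab27b* than for *Sytl4*.

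*Resp18*, which encodes a vesicle protein of neuroendocrine cells, was at 345, 304 and 359 CPM in controls and at 445, 390 and 429 CPM in mutants (log2 fold change 0.33, SE 0.091, edgeR adjusted *p* = 0.281). *Ecel1*, a membrane peptidase of neurons, was at 186, 155 and 151 CPM in controls and at 144, 113 and 121 CPM in mutants (log2 fold change -0.38, SE 0.11, edgeR adjusted *p* = 0.323). In both genes the groups did not overlap.

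Among processing enzymes that act in the Golgi, *Furin* and the site-1 protease *Mbtps1* had every mutant above every control, by 0.27 and 0.19 on the log2 scale (SE 0.15 and 0.087). *Cpd*, the carboxypeptidase of the trans-Golgi, overlapped between genotypes, with means of 218 ± 8.02 and 229 ± 7.93 CPM (SD, n = 3 each). The protease *Ctsl* and the copper importer *Slc31a1* were above controls in every mutant, with log2 fold changes of 0.14 and 0.24. *Qpct*, which forms N-terminal pyroglutamate, overlapped between genotypes with a log2 fold change of -0.058. *Pcsk1n*, the source of the PC1/3 inhibitor proSAAS, overlapped as well, with control and mutant means of 249 ± 10.7 and 222 ± 25.8 CPM (SD, n = 3 each), and shares exon sequence with a gene on the opposite strand. Adjusted p-values of these genes with edgeR ran from 0.553 to 0.915.

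Of the genes for vesicle membrane and biogenesis, *Ptprn2* (IA-2beta) and *Ccdc186*, listed under its older symbol A630007B06Rik, were below controls in every mutant by small amounts, with log2 fold changes of -0.11 and -0.17 (adjusted *p* = 0.752 and 0.565, edgeR). *Ptprn* (IA-2) was at 473, 489 and 504 CPM in controls and at 602, 475 and 475 CPM in mutants, where mutant 1 again stood above the rest. The priming factor *Cadps2* was at 107, 117 and 118 CPM in controls and at 97.3, 157 and 163 CPM in mutants, so its mutants lay on both sides of the controls. The log2 fold changes were 0.083 for *Ptprn* and 0.29 for *Cadps2* (edgeR adjusted *p* = 0.870 and 0.698). That of *Cadps2* was 0.49 without mutant 1 (edgeR adjusted *p* = 0.0927), 0.19 without mutant 2 and 0.16 without mutant 3.

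In the NCBIM37 annotation the enzymes and the chaperone are at chr13:75227274-75269946 (*Pcsk1*, plus strand), chr2:143371892-143642021 (*Pcsk2*, plus), chr2:113616519-113669278 (*Scg5*, minus), chr8:67071355-67171837 (*Cpe*, minus) and chr1:99691691-99992223 (*Pam*, minus). The granins are at chr12:103793179-103803237 (*Chga*, plus), chr2:132607014-132620815 (*Chgb*, plus), chr1:79431244-79436665 (*Scg2*, minus), chr9:75491071-75531803 (*Scg3*, minus) and chr5:137506165-137509221 (*Vgf*, plus). Counts cover the exons of these genes, and apart from *Pcsk2* none of the 10 shares exon sequence with another gene of that annotation.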

How the data were processed

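RNA of 3 control and 3 *Esr1Nkx2-1Cre* ARC samples was amplified, and the authors mapped single-end reads with TopHat2 2.1.0 and deposited HTSeq 0.6 counts per gene symbol, without normalization (versions from the submitters' processing notes). These notes name build mm9 and the paper another label, so gene positions and exon lengths were taken from GENCODE M1 (NCBIM37) by symbol. Amplification of small inputs can add spread between libraries. Counts were tested on all 15236 genes that passed edgeR's filter (R 4.3.3, edgeR 4.0.16, limma 3.58.1, DESeq2 1.42.0) with TMM, robust quasi-likelihood tests and Benjamini-Hochberg adjustment (threshold 0.05). On simulated counts, genes left unchanged made up a larger share of the calls than the threshold for edgeR, DESeq2, limma voom and the replicate block. That share was larger with DESeq2 than with edgeR. Of genes changed there by a log2 fold of 0.6, edgeR recovered 27.9% and DESeq2 37.3%, so a gene not called need not be unchanged. SD within genotype used log2(CPM + 0.5). A count of 3 corresponds to 0.175 to 0.248 CPM, and this floor covers counting error only. No pair of libraries agreed within sampling noise (chi-square per degree of freedom 6.95 to 31.5).

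The 10 genes and all lists were chosen with earlier results of these data known. Of the 40 other processing and vesicle genes, those named are *Pcsk1n*, *Furin*, *Cpd*, *Qpct*, *Ptprn*, *Ptprn2*, *Cadps2*, *Resp18* and each gene that passed the threshold or separated the genotypes, beside the 5 genes most like the mean profile by Pearson's r. Of the marker lists, astrocyte, endothelial, tanycyte and ventromedial nucleus markers had 0, 0, 0 and 0 genes called by edgeR, with sums that overlapped between genotypes. Their median log2 fold changes were 0.022, 0.28, 0.24 and 0.90. The ventromedial nucleus sums were 95.2, 210 and 151 CPM in controls 1, 2 and 3. In mutants 1, 2 and 3 they were 112.5, 258 and 320 CPM. The part of this difference in the levels of the 10 genes was not tested. Alternatives were RLE, library totals or pan-neuronal scaling, limma voom, DESeq2 (also with its beta prior), other count filters, a replicate block and each sample left out.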

Additional observations from a re-analysis of the deposited data

How the results depend on the processing

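The count of 0 of the 10 genes past the threshold held under RLE, library totals, pan-neuronal scaling, limma voom, both count filters and each sample left out, and was 1 (*Cpe*) with DESeq2, DESeq2 with its beta prior and the replicate block. That of the 39 other processing and vesicle genes tested was likewise 0, and 2, 2 and 1 under those 3 alternatives. For all genes the count of 18 became 59 with pan-neuronal scaling, 191 with DESeq2, 187 with its beta prior, 106 with a minimum of 1 count, 123 with the replicate block, and 7 to 46 with a sample left out (46 without control 2, 9 and 7 without mutants 2 and 3). The median log2 fold change of the 10 genes (0.29) was 0.17 with pan-neuronal scaling, which moved the median of all genes to -0.093. It was 0.11 with the beta prior and 0.045 (without control 2) to 0.36 with a sample left out. The cause was not tested.

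Signs changed only for genes near 0 and for *Chga*. With pan-neuronal scaling the log2 fold changes of *Pcsk2*, *Pam*, *Scg3* and *Cpd* were -0.085, -0.014, -0.075 and -0.024, and with a minimum of 1 count that of *Scg3* was -0.0033. With a sample left out, they ran from -0.12 to 0.14 for *Pcsk2*, -0.14 to 0.67 for *Chga*, -0.043 to 0.066 for *Scg3*, -0.12 to 0.016 for *Qpct* and -0.040 to 0.14 for *Ptprn*. Over all alternatives, 136 values of the 10 genes kept direction and side of the threshold, 11 changed sign and 3 (*Cpe*) moved past the threshold. With any sample but control 2 left out, groups did not overlap for 3 or 4 genes, beside 22.5 to 27.7% of all genes. Without control 2 this held for 6 genes, beside 24.6%. Genes with an unadjusted p-value under 0.05 in edgeR's test numbered 2 or 3 with a sample left out. The share of all genes under 0.05 was 8.85% with all samples kept. It was not counted with a sample left out, so the numbers of 2 or 3 have no matching background. These counts were added after seeing the data.

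Same-numbered samples correlated in their deviations with r of 0.313, 0.0487 and 0.0189 across genes, so the numbers were not taken to pair the samples. With the replicate block the adjusted p-values were 0.0484 for *Cpe* and 0.0484 for *Ecel1*.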
